A study of Mus musculus with 12 samples.

Results

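Phlda1, Abhd17b, Arid5b, Vmp1 and Fzd4 are 5 genes whose liver expression lay highest, on the group mean, in wild-type (WT) mice given CITCO. They were selected on that measured pattern, with no numeric threshold, from a count table of 51912 genes, and all 5 were among the 8594 genes that passed the filter on low counts. Every comparison that holds WT CITCO was therefore used in the choice, and the values of the 5 genes there are a description without a test. Tests on them were made only between the other groups.

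The series holds RNAseq of liver from 12 adult male mice on a C57BL/6NTac background, with 3 mice in each of 4 groups. CITCO is an activator of the human constitutive androstane receptor (CAR), which, with the pregnane X receptor (PXR), is a nuclear receptor that switches on genes of drug metabolism in hepatocytes. WT mice received either corn oil, the vehicle, or CITCO. The other groups, both given CITCO, were hCAR/hPXR mice, in which human CAR and PXR stand in place of the mouse receptors, and Car KO/hPXR mice, which lack mouse Car and Pxr and carry human PXR. Injections were intraperitoneal, once daily for 4 days, and the mice were killed on day 5. CITCO is labelled as given at 10 mg/kg, and the methods name a higher dose as well. Only WT mice received corn oil here, so that the genotype of the humanised mice and their response to CITCO cannot be told apart. Fewer cells of a type and less RNA per cell cannot be told apart in bulk liver either.

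Libraries were built on the poly(A) end of messenger RNA and held between 1167027 and 2341572 counts, and levels are given as CPM, the counts per 1000000 counts of a library after scaling by edgeR's TMM factors. Before that scaling, 3 counts corresponded to between 1.28 and 2.57 CPM. Mouse Nr1i2, which encodes PXR, was at 70.5 to 93.6 CPM in the 6 WT libraries and at 0 to 1.27 CPM in the 6 humanised ones. Mouse Nr1i3, which encodes CAR, was at 73.3 to 145.6 CPM in WT libraries and at 0 to 5.01 CPM in humanised ones, so that no library went against its label as WT or humanised. Both genes are near 0 in both humanised genotypes and do not tell hCAR/hPXR from Car KO/hPXR, and the human alleles were not checked here. All 12 hepatocyte markers on the list used here, albumin among them, were detected, and their summed level lay between 43960 and 61840 CPM in every library.

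The 5 genes do not belong to one pathway. Phlda1 encodes a pleckstrin homology-like domain protein that is transcribed in response to growth factor and stress signals, and Abhd17b encodes a serine hydrolase that removes palmitate from membrane-bound proteins such as Ras. Fzd4 encodes a frizzled receptor for Wnt ligands and norrin, known best from endothelial cells. Arid5b encodes a DNA-binding protein with an AT-rich interaction domain that works with the histone demethylase Phf2 and is known from lipid metabolism in liver and fat. Vmp1 encodes a membrane protein of the endoplasmic reticulum that moves lipids between membrane leaflets and is needed to form autophagosomes.

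On GRCm38 (GENCODE M21), Phlda1 (ENSMUSG00000020205) lies on the plus strand at chr10:111506286-111508645, Abhd17b (ENSMUSG00000047368) on the plus strand at chr19:21653185-21685637 and Fzd4 (ENSMUSG00000049791) on the plus strand at chr7:89404355-89413134. Arid5b (ENSMUSG00000019947) lies on the minus strand at chr10:68092520-68278740 and Vmp1 (ENSMUSG00000018171) on the minus strand at chr11:86583865-86683836. Promoter windows were available from RefSeq (GRCm38.p6) for 4 of the 5 genes and are shown because the 5 genes were chosen for a shared pattern of expression. Each window holds 250 bases before and 50 after the RefSeq start, printed 5' to 3' on the gene's strand, and capitals mark matches, on either strand, to the motifs named after them.
Abhd17b promoter, chr19:21653059-21653358, plus strand: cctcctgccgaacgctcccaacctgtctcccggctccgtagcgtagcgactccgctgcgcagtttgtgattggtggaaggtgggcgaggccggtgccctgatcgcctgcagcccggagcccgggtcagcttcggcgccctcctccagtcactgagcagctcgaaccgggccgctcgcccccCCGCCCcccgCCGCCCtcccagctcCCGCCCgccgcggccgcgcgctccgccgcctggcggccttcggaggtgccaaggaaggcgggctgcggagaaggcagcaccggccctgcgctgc
Arid5b promoter, chr10:68278677-68278976, minus strand: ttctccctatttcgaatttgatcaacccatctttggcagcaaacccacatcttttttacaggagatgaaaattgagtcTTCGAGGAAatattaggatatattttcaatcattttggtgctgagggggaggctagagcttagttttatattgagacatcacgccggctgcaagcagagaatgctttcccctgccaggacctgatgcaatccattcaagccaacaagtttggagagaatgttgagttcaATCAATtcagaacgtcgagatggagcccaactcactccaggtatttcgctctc
Vmp1 promoter, chr11:86683787-86684086, minus strand: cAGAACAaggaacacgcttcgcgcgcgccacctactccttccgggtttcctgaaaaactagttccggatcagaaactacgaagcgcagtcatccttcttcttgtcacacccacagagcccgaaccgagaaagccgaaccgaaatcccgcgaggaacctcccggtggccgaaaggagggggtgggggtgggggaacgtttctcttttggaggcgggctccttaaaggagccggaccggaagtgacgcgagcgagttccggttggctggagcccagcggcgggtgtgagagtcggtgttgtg
Fzd4 promoter, chr7:89404116-89404415, plus strand: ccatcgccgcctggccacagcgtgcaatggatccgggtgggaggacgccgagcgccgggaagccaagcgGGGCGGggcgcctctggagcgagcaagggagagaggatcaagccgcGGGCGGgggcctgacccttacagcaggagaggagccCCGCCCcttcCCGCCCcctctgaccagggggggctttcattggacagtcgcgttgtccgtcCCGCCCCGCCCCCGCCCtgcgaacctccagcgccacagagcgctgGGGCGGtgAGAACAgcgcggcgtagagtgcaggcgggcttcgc
The capitals in Abhd17b are 3 matches to the Sp1 motif GGGCGG, and those in Fzd4 are 8 matches to it, some of which overlap, with AGAACA, a half-site of steroid receptors, at offset 15. Offsets count bases from the RefSeq start, which is 0 and need not be the GENCODE start, and matches to different motifs did not overlap. Arid5b held TTCNNNGAA, the STAT motif, at offset -172 and ATTGAT, the ONECUT core, at offset -3. Vmp1 held AGAACA at offset -249. Over 32851 windows of the same length, GGGCGG was found in 35.7%, AGAACA in 19%, TTCNNNGAA in 8.3% and ATTGAT in 7.5%. The cAMP response element TGACGTCA (1.8% of windows), the FOX core TGTTTAC (3.6%), the nuclear receptor half-site AGGTCA (16.3%), the E-box CACGTG (7.2%) and the AP-1 motif TGANTCA (7.8%) had no match in the 4 windows. No motif was shared by more than 2 of the 4 genes, and a match is a run of letters, not a site shown to be bound. The windows of Abhd17b, Fzd4 and Vmp1 were rich in G and C (75%, 72.7% and 60.3%) with 37, 32 and 28 CG pairs, whereas the Arid5b window had 43.3% and 7, against medians of 52.7% and 7 over all windows.

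Vmp1 carries a microRNA gene. The hairpin of Mir21a, at chr11:86584067-86584158 on the same strand, lies within an exon of the longest Vmp1 transcript. Its mature products (RefSeq, GRCm38.p6) are shown because this microRNA shares an exon with one of the 5 genes, with the seed, bases 2 to 8, in capitals.
mmu-miR-21a-5p: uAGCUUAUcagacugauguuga
mmu-miR-21a-3p: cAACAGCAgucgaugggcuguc
Mir21a itself had 0 counts in every library. These libraries were primed on poly(A) tails, and the mature microRNAs were not measured. The other annotated neighbour within an exon is Gm28592, a long non-coding RNA on the opposite strand of Phlda1, which had between 0 and 1 counts per library.

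Phlda1 was measured at 81.1, 38.1 and 27.2 CPM in WT corn oil mice 1 to 3, at 209.5, 199.1 and 97.1 CPM in WT CITCO mice, at 46.6, 42.2 and 45.9 CPM in hCAR/hPXR mice and at 92.1, 63.5 and 99.4 CPM in Car KO/hPXR mice. WT CITCO mice 1 and 2 stood above every other library, whereas mouse 3 fell just below Car KO/hPXR mouse 3, so that these groups overlapped. The hCAR/hPXR libraries lay within the range of the corn oil libraries and below all 3 Car KO/hPXR libraries. The group means were 168.6 ± 62.1 CPM in WT CITCO, 85.0 ± 19 in Car KO/hPXR, 48.8 ± 28.5 in WT corn oil and 44.9 ± 2.35 in hCAR/hPXR (SD, n = 3 each). The log2 fold change of WT CITCO was 1.76 (SE 0.32) over WT corn oil, 1.91 (SE 0.33) over hCAR/hPXR and 0.99 (SE 0.32) over Car KO/hPXR. In fold terms Phlda1 was thus 3.39, 3.75 and 1.98 times as high.

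Abhd17b was measured at 17.0, 21.2 and 30.8 CPM in WT corn oil, 82.4, 77.4 and 35.9 CPM in WT CITCO, 35.7, 30.1 and 25.9 CPM in hCAR/hPXR and 31.8, 32.6 and 23.8 CPM in Car KO/hPXR mice. All 3 WT CITCO libraries were above the other 9, but mouse 3 exceeded hCAR/hPXR mouse 1 only by 35.88 against 35.75 CPM, from 51 and 69 counts. The other 3 groups overlapped one another. Means were 65.2 ± 25.5 CPM in WT CITCO, 30.6 ± 4.96 in hCAR/hPXR, 29.4 ± 4.84 in Car KO/hPXR and 23.0 ± 7.07 in WT corn oil (SD, n = 3 each). On the log2 scale WT CITCO was higher by 1.52 (SE 0.29) over WT corn oil, 1.08 (SE 0.29) over hCAR/hPXR and 1.15 (SE 0.29) over Car KO/hPXR, with folds of 2.86, 2.12 and 2.22.

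Fzd4 had the smallest difference of the 5 genes from WT corn oil and from Car KO/hPXR mice. It was measured at 39.0, 29.6 and 36.8 CPM in WT corn oil, 55.8, 65.7 and 23.2 CPM in WT CITCO, 26.4, 23.7 and 17.5 CPM in hCAR/hPXR and 28.6, 40.9 and 27.9 CPM in Car KO/hPXR mice. WT CITCO mice 1 and 2 were the highest of all libraries, while mouse 3 ranked 11 of 12 and lay below every WT corn oil and every Car KO/hPXR library. Means were 48.2 ± 22.2 CPM in WT CITCO, 35.1 ± 4.90 in WT corn oil, 32.5 ± 7.31 in Car KO/hPXR and 22.6 ± 4.57 in hCAR/hPXR (SD, n = 3 each). The WT CITCO libraries overlapped those of every other group, while the hCAR/hPXR libraries lay below all WT corn oil and all Car KO/hPXR libraries. On the log2 scale the difference of WT CITCO was 0.45 (SE 0.29) over WT corn oil, 1.08 (SE 0.31) over hCAR/hPXR and 0.58 (SE 0.30) over Car KO/hPXR. On these values the description of Fzd4 as highest in WT CITCO rested on 2 of 3 mice.

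Arid5b was measured at 59.1, 52.9 and 33.8 CPM in WT corn oil, 173.2, 189.5 and 133.7 CPM in WT CITCO, 69.4, 79.8 and 125.9 CPM in hCAR/hPXR and 90.2, 61.0 and 69.8 CPM in Car KO/hPXR mice. All 3 WT CITCO libraries exceeded the other 9, with the nearest of those in hCAR/hPXR mouse 3. All 6 libraries of the humanised mice were in turn above all 3 WT corn oil libraries. Means were 165.4 ± 28.7 CPM in WT CITCO, 91.7 ± 30.1 in hCAR/hPXR, 73.7 ± 15 in Car KO/hPXR and 48.6 ± 13.2 in WT corn oil (SD, n = 3 each). The log2 fold change of WT CITCO was 1.76 (SE 0.24) over WT corn oil, 0.87 (SE 0.24) over hCAR/hPXR and 1.16 (SE 0.24) over Car KO/hPXR, with folds of 3.39, 1.82 and 2.23.

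Vmp1 was measured at 83.8, 68.4 and 73.1 CPM in WT corn oil, 208.9, 226.8 and 117.5 CPM in WT CITCO, 105.7, 98.4 and 89.2 CPM in hCAR/hPXR and 82.0, 60.1 and 100.2 CPM in Car KO/hPXR mice. All 3 WT CITCO libraries exceeded the other 9. The hCAR/hPXR libraries were all above the WT corn oil libraries, and the Car KO/hPXR libraries overlapped both. Means were 184.4 ± 58.6 CPM in WT CITCO, 97.8 ± 8.24 in hCAR/hPXR, 80.8 ± 20.1 in Car KO/hPXR and 75.1 ± 7.88 in WT corn oil (SD, n = 3 each). The log2 fold change of WT CITCO was 1.29 (SE 0.22) over WT corn oil, 0.91 (SE 0.22) over hCAR/hPXR and 1.19 (SE 0.23) over Car KO/hPXR, with folds of 2.45, 1.88 and 2.28.

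**Figure D1:**
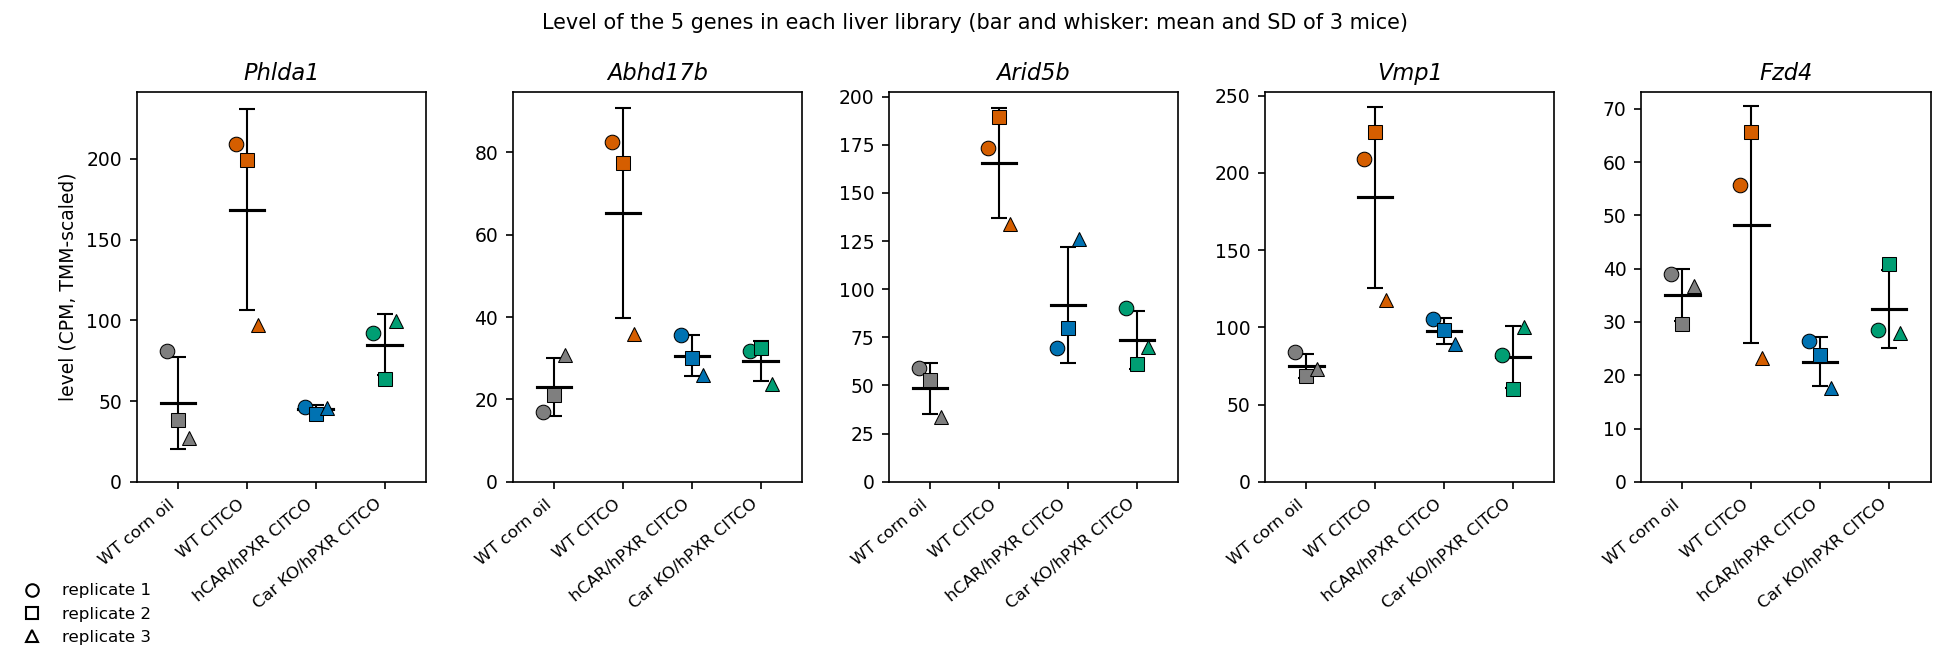
Level of each gene (y axis, CPM scaled by TMM, from 0) in each of the 12 liver libraries by group (x axis), with 1 point per mouse shaped by replicate number and the mean and SD of 3 mice in black. WT CITCO mice 1 and 2 are the highest points in every panel, mouse 3 is the lowest of its group in every panel, and in the Fzd4 panel mouse 3, at 23.2 CPM, sits below the WT corn oil points.

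Of the 5 genes, 3 (Abhd17b, Arid5b and Vmp1) had every WT CITCO library above the other 9 libraries, which was so for 70 of all 8594 genes tested (0.815%). For 4 of the 5, all but Fzd4, the WT CITCO mean was over 1.5 times the mean of each other group, as it was for 100 of all genes tested (1.16%). Both counts follow from how the genes were picked. Across all genes tested, 0.233% were called between WT CITCO and WT corn oil, 0.407% between WT CITCO and hCAR/hPXR, and 0.256% between WT CITCO and Car KO/hPXR, a call being an adjusted p under 0.05 (edgeR's quasi-likelihood test, adjusted by Benjamini-Hochberg) beside a fold over 1.5. The median log2 fold change of the 5 genes in these comparisons was 1.52, 1.08 and 1.15, while that of all genes lay within 0.02 of 0. The 3 comparisons share the WT CITCO libraries and are not independent of one another.

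WT CITCO mouse 3 was the lowest of its group in 5 of 5 genes. On the log2 scale it lay below the mean of mice 1 and 2 by 1.06 in Phlda1 (difference -1.06), 1.13 in Abhd17b (-1.13), 0.88 in Vmp1 (-0.88), 1.34 in Fzd4 (-1.34) and 0.44 in Arid5b (-0.44). Over all genes tested the same difference had a median of 0.00 and quartiles of -0.31 and 0.31, so that all 5 genes lay below the lower quartile. TMM scaling sets that median near 0, so it cannot show whether mouse 3 was lower across genes in general. Its library held 1370357 counts, against 1577720 and 1654448 in mice 1 and 2. Without mouse 3, all 5 genes had every remaining WT CITCO library above the other 9. This follows in part from how the genes were picked, and the share of all genes for that smaller set is not given here. The lower level of mouse 3 was smallest in Arid5b, where it was still 2.75 times the WT corn oil mean, and largest in Fzd4, where it was 0.661 times that mean. The cause was not tested.

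In the comparison of hCAR/hPXR with Car KO/hPXR mice, which sets mice with human CAR against mice without any CAR, 0 of the 5 genes were called, against 0.582% of all genes tested, 50 of 8594. Phlda1 came nearest, with a log2 fold change of -0.92 (95% interval -1.63 to -0.22) and an unadjusted p of 0.0131 that became 0.301 on adjustment over all genes (edgeR's quasi-likelihood test). All 3 hCAR/hPXR libraries were below all 3 Car KO/hPXR libraries for this gene. The log2 fold change was -0.50 (-1.17 to 0.17) for Fzd4, 0.29 (-0.22 to 0.81) for Arid5b, 0.28 (-0.20 to 0.76) for Vmp1 and 0.07 (-0.58 to 0.71) for Abhd17b, with adjusted p between 0.634 and 0.963. These intervals still allow differences of over 1.5-fold in Fzd4, Arid5b, Vmp1 and Abhd17b in at least 1 direction. An unadjusted p under 0.05 was found for 1 of the 5 genes and for 913 of all genes.

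For hCAR/hPXR mice on CITCO against the WT corn oil group, 0 of the 5 genes were called, against 0.989% of all genes tested, 85 of 8594. Arid5b was 1.86 times as high in hCAR/hPXR mice, with a log2 fold change of 0.89 (0.37 to 1.41), an unadjusted p of 0.00199 and an adjusted p of 0.111 (edgeR's quasi-likelihood test), and its 3 hCAR/hPXR libraries did not overlap the 3 corn oil libraries. DESeq2's Wald test gave Arid5b an adjusted p of 0.0434, past the threshold, at a log2 fold change of 0.89, and limma called 0 of the 5 genes. Fzd4 had a log2 fold change of -0.63 (-1.28 to 0.03), Abhd17b 0.43 (-0.21 to 1.07), Vmp1 0.38 (-0.09 to 0.85) and Phlda1 -0.15 (-0.86 to 0.56), with adjusted p between 0.490 and 0.932. Without WT corn oil mouse 1, in which Phlda1 was highest of its group, the Phlda1 value turned to 0.47. An unadjusted p under 0.05 was found for 1 of the 5 genes and for 939 of all genes.

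For Car KO/hPXR mice on CITCO against the WT corn oil group, 0 of the 5 genes were called, against 0.0465% of all genes tested, 4 of 8594. Phlda1 had a log2 fold change of 0.77 (0.08 to 1.47) and Arid5b one of 0.60 (0.07 to 1.13), with unadjusted p of 0.0303 and 0.0282 and adjusted p of 0.836 and 0.827 (edgeR's quasi-likelihood test). Abhd17b had 0.37 (-0.29 to 1.02), Vmp1 0.10 (-0.38 to 0.58) and Fzd4 -0.13 (-0.77 to 0.52). An unadjusted p under 0.05 was found for 2 of the 5 genes and for 481 of all genes. DESeq2 and limma called 0 of the 5 genes in this comparison, and the same was found for hCAR/hPXR against Car KO/hPXR. The 3 tested comparisons share libraries with one another, and the median log2 fold change of the 5 genes was 0.07, 0.38 and 0.37 in the order given here, while that of all genes was 0.01, 0.01 and 0.00.

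**Figure D2:**
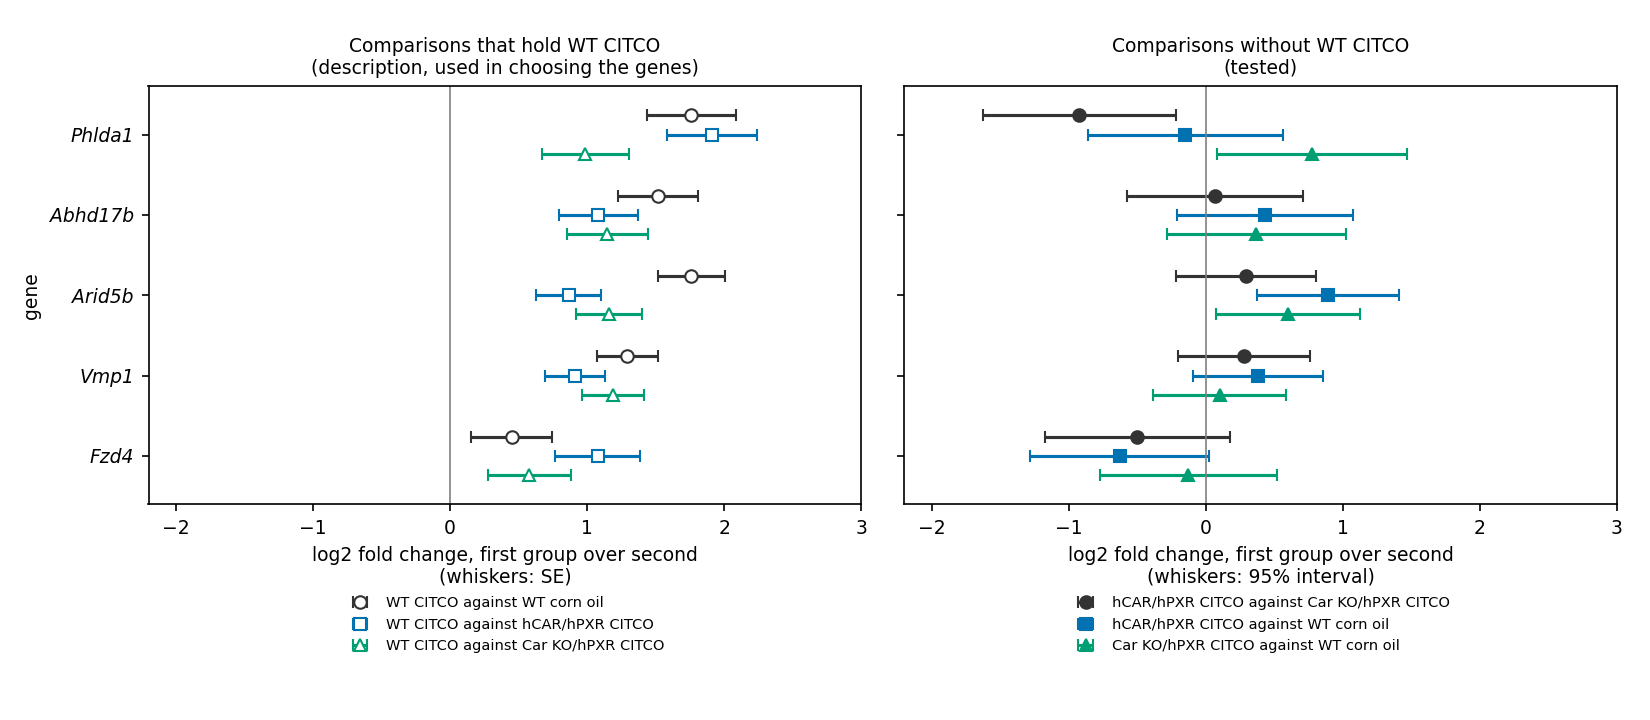
Log2 fold change (x axis) of each gene (y axis) in the 6 comparisons, with open symbols and SE whiskers on the left for comparisons that hold WT CITCO, which chose the genes, and filled symbols with 95% intervals on the right for the tested ones. On the left every value is above 0, from 0.45 for Fzd4 over WT corn oil to 1.91 for Phlda1 over hCAR/hPXR, and on the right the values run from -0.92 to 0.89.

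Ordered by mean, WT CITCO was followed by Car KO/hPXR for Phlda1, by WT corn oil for Fzd4 and by hCAR/hPXR for Abhd17b, Arid5b and Vmp1. WT corn oil had the lowest mean for Abhd17b, Arid5b and Vmp1, and hCAR/hPXR for Phlda1 and Fzd4. Groups next to each other in that order below WT CITCO overlapped in their libraries, except Car KO/hPXR and WT corn oil for Arid5b, and Car KO/hPXR and hCAR/hPXR for Fzd4. The 5 genes also differed in how they varied from mouse to mouse. Over the 10 pairs of genes, Pearson's r of the deviations of log2 CPM from the group mean had a median of 0.45 over the 12 libraries (range -0.16 to 0.79), and of -0.16 over the 9 libraries other than WT CITCO (range -0.78 to 0.61). Outside WT CITCO, Phlda1 deviated with Vmp1 (r = 0.61) and Arid5b (r = 0.60) and opposite to Abhd17b (r = -0.78). These are descriptions over few libraries whose genes share depth and normalization.

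The 3 other genes most like each of the 5 were taken by Pearson's r of log2 CPM over the 12 libraries, and are likewise descriptions. For Phlda1 they were Gadd45g (r = 0.924), a growth arrest and stress gene, Cish (0.924), which encodes a feedback inhibitor of STAT5 signalling, and Foxq1 (0.918), a forkhead transcription factor. Foxq1 was at 85.6, 40.2 and 16.3 CPM in WT corn oil, 181.6, 178.4 and 133.0 CPM in WT CITCO, 40.4, 53.2 and 53.4 CPM in hCAR/hPXR and 134.1, 34.2 and 100.2 CPM in Car KO/hPXR mice. As with Phlda1, its corn oil library 1 and its Car KO/hPXR libraries 1 and 3 were the high ones of their groups. Over the 9 libraries without WT CITCO, which were among the 12 used to pick it, r was 0.874. Cish was at 4.93, 2.12 and 1.21 CPM in WT corn oil, 55.8, 42.9 and 40.8 CPM in WT CITCO, 4.15, 2.89 and 3.34 CPM in hCAR/hPXR and 30.5, 9.19 and 12.3 CPM in Car KO/hPXR mice. In Cish the Car KO/hPXR libraries lay between those of WT CITCO and hCAR/hPXR, whereas in Phlda1 they lay above hCAR/hPXR and overlapped WT CITCO.

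Arid5b was most like Plk3 (r = 0.921), a stress-responsive polo-like kinase, Snora30 (0.853), a small nucleolar RNA, and Bnip3 (0.835), a mitochondrial protein of mitophagy. Plk3 was at 9.85, 7.76 and 3.62 CPM in WT corn oil, 75.3, 43.6 and 28.1 CPM in WT CITCO, 14.5, 30.1 and 18.4 CPM in hCAR/hPXR and 15.9, 10.9 and 10.7 CPM in Car KO/hPXR mice. Its 6 humanised libraries all exceeded the corn oil libraries, as those of Arid5b did. Abhd17b was most like Naa60 (r = 0.883), Onecut1 (0.862) and Lonrf1 (0.852). Onecut1, which encodes the liver transcription factor HNF6, was at 7.61, 7.76 and 23.6 CPM in WT corn oil, 144.0, 113.4 and 90.1 CPM in WT CITCO, 37.3, 19.7 and 26.7 CPM in hCAR/hPXR and 47.7, 41.8 and 43.5 CPM in Car KO/hPXR mice. The WT CITCO libraries of Onecut1 did not overlap those of any other group.

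Vmp1 was most like Crtc3 (r = 0.919), a coactivator of cAMP-responsive transcription, Rpl27-ps1 (0.874), a ribosomal protein pseudogene, and Rlf (0.868). Rpl27-ps1 is a near copy of other sequences, had counts in only 4 libraries, and its r fell to 0.368 without WT CITCO, so its values are uncertain. Fzd4 was most like C1ra (0.895), a complement protease, Zcchc2 (0.878) and Lrrc58 (0.858). C1ra was at 173.8, 185.3 and 106.2 CPM in WT CITCO mice 1 to 3, so that mouse 3 was low in it too and fell below all 3 WT corn oil libraries (122.0 to 146.5 CPM). Over the 9 libraries without WT CITCO, which were also used to pick them, r between Fzd4 and these 3 genes was between 0.717 and 0.745.

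**Figure D3:**
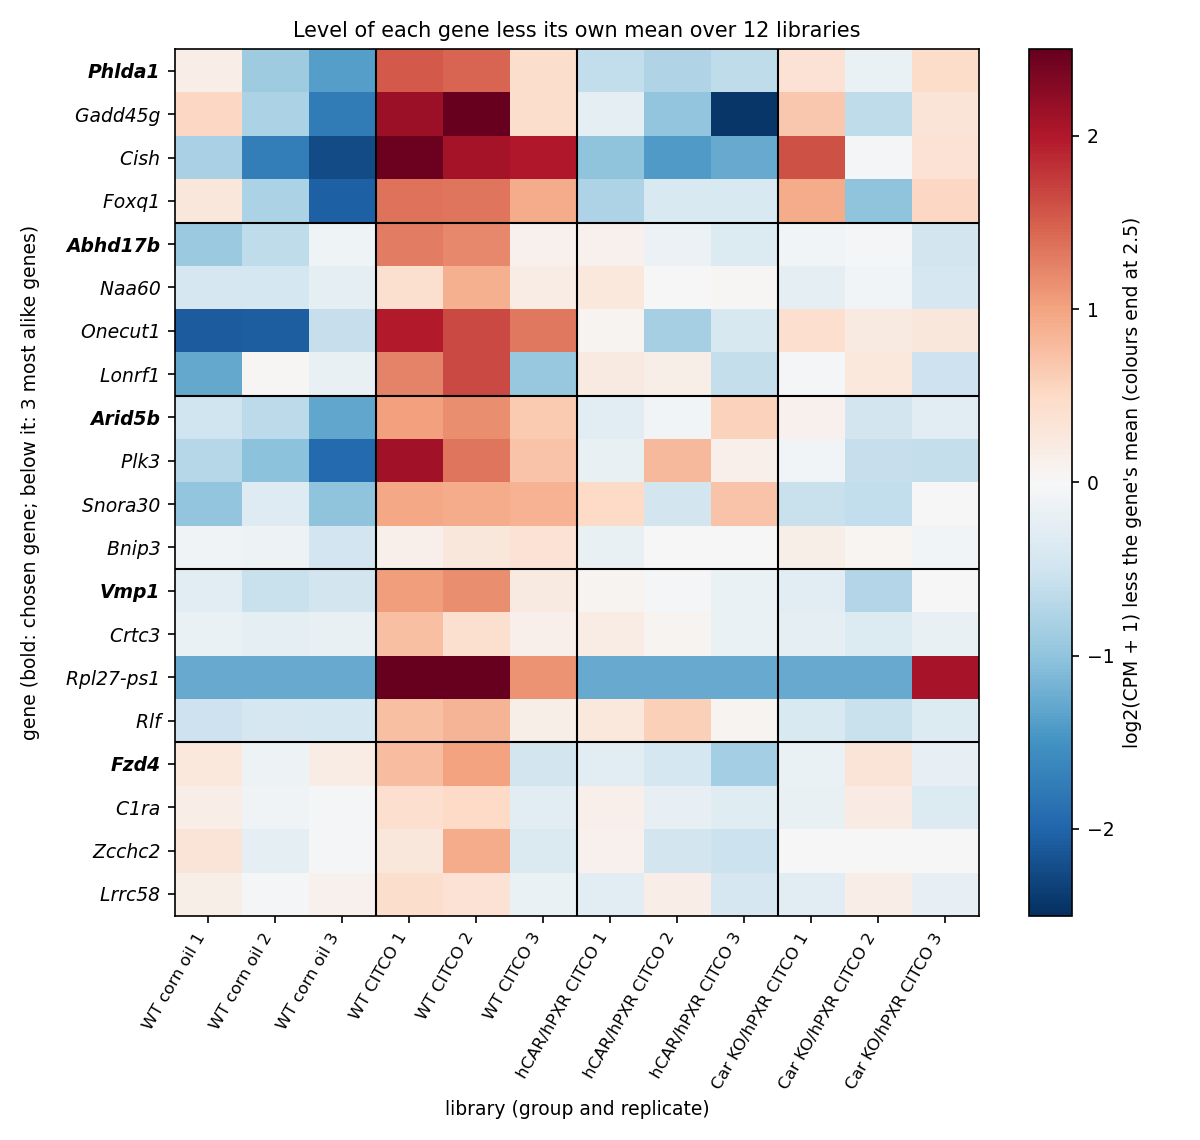
Level of the 5 genes (bold) and of the 3 genes most like each (rows) in the 12 libraries (columns), as log2(CPM + 1) less the gene's own mean, with red above and blue below that mean and colours ending at 2.5. WT CITCO libraries 1 and 2 lie above the mean in every row, and library 3 is paler than both for Phlda1, Abhd17b and Vmp1 and below the mean for Fzd4.

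Relatives of the 5 genes were described beside them, and none of those tested was called in any comparison. The other Phlda genes, Phlda2 and Phlda3, had between 0 and 5 counts per library and were not tested. Arid5a, a relative of Arid5b, was not tested either. It had 2, 0 and 0 counts in WT corn oil, 6, 4 and 3 in WT CITCO, 4, 4 and 1 in hCAR/hPXR and 0, 1 and 0 in Car KO/hPXR mice. Of the Abhd17 paralogues, Abhd17c had a mean of 157.6 ± 23.0 CPM in WT corn oil and of 95.4 ± 19.6 CPM in WT CITCO (SD, n = 3 each), with all 3 WT CITCO libraries below the corn oil libraries and a log2 difference of -0.72 (-1.11 to -0.33, adjusted p = 0.153 by edgeR's quasi-likelihood test). Abhd17a had a log2 difference of 0.66 (0.11 to 1.22, adjusted p = 0.427 by the same test). Tmem41b, which encodes the protein that works beside Vmp1 in the endoplasmic reticulum, was at 24.4 ± 7.56 CPM in WT corn oil and 22.5 ± 3.11 CPM in WT CITCO (SD, n = 3 each). Its log2 difference was -0.12 (-0.68 to 0.45, adjusted p = 0.943 by edgeR's quasi-likelihood test). Of the 9 other frizzled genes, Fzd5 and Fzd8 passed the filter. Fzd8 had means of 12.4 ± 1.70 CPM in WT CITCO and 7.21 ± 3.30 CPM in WT corn oil (SD, n = 3 each). Fzd5 had means of 6.17 ± 4.84 CPM in WT CITCO and 8.08 ± 4.68 CPM in WT corn oil (SD, n = 3 each). The log2 difference was 0.74 (-0.27 to 1.74, adjusted p = 0.688) for Fzd8 and -0.39 (-1.56 to 0.77, adjusted p = 0.889) for Fzd5, by edgeR's quasi-likelihood test.

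Genes of the pathways around the 5 were read from lists of Wnt receptors, Wnt ligands and regulators, Wnt targets of pericentral hepatocytes, autophagosome formation, depalmitoylases, palmitoyltransferases and the ARID family. Leaving out the 5 genes, these 7 lists held 85 tested genes, and edgeR's quasi-likelihood test called 0 of them in any of the 6 comparisons. Of the 510 pairs of gene and comparison, 40 (7.84%) had an unadjusted p under 0.05, against 4674 of the 51564 pairs of all genes tested (9.06%). The shares called over all genes, 0.0465% to 0.989%, stand with the comparisons. DESeq2, which gave no adjusted p for 153 of these 510 pairs, called 1 pair, Ulk1, a kinase that starts autophagy, which was lower in hCAR/hPXR mice against Car KO/hPXR mice (log2 fold change -0.84, SE 0.25, adjusted p = 0.0351), and limma called 0. The list of autophagosome formation, the largest with 31 tested genes, had medians between -0.18 and 0.02 on the log2 scale over the 6 comparisons, that of the 9 Wnt receptors between -0.18 and 0.12, and over all 7 lists medians ran from -0.28 to 0.13.

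Lists of genes that respond to signals were described in the same way. In the list of 14 tested insulin and FOXO genes, Igfbp1, an insulin-repressed binding protein of growth factors, was at 27.2, 19.4 and 61.9 CPM in WT CITCO, 115.6, 97.3 and 93.0 CPM in WT corn oil, 210.3, 193.2 and 313.6 CPM in hCAR/hPXR and 47.7, 116.9 and 138.8 CPM in Car KO/hPXR mice, so that WT CITCO overlapped only with Car KO/hPXR. Igfbp1 fell by 2.72 on the log2 scale in WT CITCO against hCAR/hPXR mice (SE 0.37, adjusted p = 0.000783 by edgeR's quasi-likelihood test). The call held whichever of the 12 libraries was left out, and with DESeq2 and limma.

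The other calls in these lists were less firm. Of the 9 ERK response genes, Dusp6, which encodes a phosphatase that turns off ERK, fell by 1.31 in WT CITCO against hCAR/hPXR mice (SE 0.26, adjusted p = 0.0317 by edgeR's quasi-likelihood test), a call that ended without any 1 of 7 libraries, among them every WT CITCO and hCAR/hPXR library (adjusted p up to 0.193). Of the 6 stress response genes, Gdf15, a hormone made under cell stress, fell by 3.24 in the same comparison (SE 0.62, adjusted p = 0.0201 by edgeR's quasi-likelihood test). Its WT CITCO counts were between 0 and 4 per library, the size of that fold rests on them, and DESeq2 gave it no adjusted p (unadjusted p = 2.19e-05). Of the 11 glucocorticoid response genes, the metallothionein Mt1 fell by 2.83 (SE 0.58, adjusted p = 0.0363) and Mt2 fell by 3.45 (SE 0.66, adjusted p = 0.0201) in WT CITCO against hCAR/hPXR mice by edgeR's quasi-likelihood test. Both were also higher in hCAR/hPXR against Car KO/hPXR mice, by 3.03 and 3.68 (adjusted p = 0.0242 and 0.0161), and Mt2 was higher in hCAR/hPXR mice against WT corn oil, by 2.97 (adjusted p = 0.0248). The acute-phase gene Lcn2 was at 185.5, 9.84 and 29.2 CPM in hCAR/hPXR mice and had 5, 1 and 3 counts in WT corn oil, so that 1 library and counts near the floor carried its log2 difference of 5.44 (adjusted p = 0.0134), which was 3.43 without hCAR/hPXR mouse 1. The calls of Gdf15, Mt1, Mt2 and Lcn2 each ended without any 1 of 4 to 8 libraries, and limma did not call Lcn2. These were the only calls of edgeR's test in the 4 lists over the 6 comparisons, where 0.0465% to 0.989% of all genes were called. None of these calls was between WT CITCO and WT corn oil. There edgeR's unadjusted p was under 0.05 for 4 of 6 stress and 4 of 11 glucocorticoid genes. It was so for 3 of 14 insulin genes, 0 of 9 ERK genes and 9.13% of all genes. Median log2 differences of the 4 lists were -0.71, -0.48, -0.35 and 0.04 in that order, and 0 of the 6 stress genes were higher. The stress list (14 genes) summed to 336.7 to 457.3 CPM in WT CITCO and 560.7 to 877.9 CPM in WT corn oil. In that comparison DESeq2 called Atf5, a stress-responsive transcription factor, lower in WT CITCO (-0.87, SE 0.23, adjusted p = 0.0292), where edgeR gave an adjusted p of 0.157. DESeq2 also called Junb in WT CITCO against Car KO/hPXR (-1.25, adjusted p = 0.0484) and Dusp6 in hCAR/hPXR against WT corn oil (1.06, adjusted p = 0.0159), and limma called Mt1 there (2.25, adjusted p = 0.0291).

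Markers of liver cell types were compared because a change in cell composition would alter bulk levels. All 15 endothelial markers had counts, and their summed level was 435.9 to 463.1 CPM in WT corn oil, 419.1 to 471.6 CPM in WT CITCO, 345.6 to 432.7 CPM in hCAR/hPXR and 431.4 to 440.0 CPM in Car KO/hPXR mice. In WT CITCO mice 1 to 3 that sum was 419.1, 471.6 and 446.0 CPM, where Fzd4 was at 55.8, 65.7 and 23.2 CPM. The part of endothelial cells in the low Fzd4 level of mouse 3 was not tested. Of the 13 tested markers, edgeR's quasi-likelihood test, DESeq2 and limma called 0 in any comparison. In each comparison 0 to 2 of these markers had an unadjusted p under 0.05 by edgeR's test. DESeq2 gave no adjusted p for 31 of their 78 pairs of gene and comparison. The hCAR/hPXR group had the lowest Fzd4 mean and the lowest median endothelial sum, but its sums overlapped those of WT CITCO and Car KO/hPXR mice. In hCAR/hPXR mice 1 to 3 the sum was 345.6, 432.7 and 372.8 CPM, where Fzd4 was at 26.4, 23.7 and 17.5 CPM. The part of endothelial cells in the Fzd4 level of this group was not tested.

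Within WT CITCO the summed level of Kupffer cell markers, 11 of 11 with counts, was lowest in mouse 3, as were the 5 genes. The same was so for the sums of red blood cell markers and of cholangiocyte markers, the latter mostly counts of 1 gene, Sox9. Sums of stellate cell, leukocyte and hepatocyte markers were highest in mouse 3. The Kupffer cell sum was 555.9, 515.1 and 375.7 CPM in WT CITCO mice 1 to 3. It was 308.5 to 379.4 CPM in WT corn oil, 412.5 to 435.3 CPM in Car KO/hPXR and 482.9 to 604.6 CPM in hCAR/hPXR mice. WT CITCO mouse 3 was thus at the level of corn oil. In hCAR/hPXR mice the 5 genes were lower on the mean than in WT CITCO, and the sums were in the range of WT CITCO mice 1 and 2 or near it. Between WT CITCO and WT corn oil 0 of the 11 were called by edgeR's quasi-likelihood test, with 3 at an unadjusted p under 0.05, as 785 of all genes (9.13%) had, and 0 called by DESeq2 or limma. Against WT corn oil, hCAR/hPXR mice had 1 call in the list, the scavenger receptor Marco, higher by 1.82 (SE 0.38, adjusted p = 0.0202 by edgeR's quasi-likelihood test), which ended without any 1 of 4 libraries (adjusted p up to 0.12). In the same comparison DESeq2 called Marco and also Cd5l (0.80, adjusted p = 0.00908), where edgeR's test gave Cd5l an adjusted p of 0.0544. Limma called Marco but not Cd5l. The part of Kupffer cells in the levels of the 5 genes was not tested. Stellate cell and fibroblast markers (10 of 10 with counts) went the other way in mouse 3, with sums of 343.8, 300.8 and 450.3 CPM in WT CITCO mice 1 to 3 and 287.0 to 310.3 CPM in WT corn oil.

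Leukocyte markers (8 of 8 with counts, 3 tested) summed to 42.8 to 58.4 CPM in hCAR/hPXR mice and to at most 24.2 CPM elsewhere, with S100a8, a neutrophil gene, higher by 3.25 on the log2 scale in hCAR/hPXR than in WT corn oil mice (SE 0.46, adjusted p = 0.00144 by edgeR's quasi-likelihood test, and at most 0.0121 without any 1 library). Limma called it too, and DESeq2 gave no adjusted p for any of the 3 tested genes (unadjusted p = 1.3e-07 for S100a8). Red blood cell markers (5 of 5 with counts) summed to 1859 to 2192 CPM in hCAR/hPXR mice and to between 1987 and 3985 CPM elsewhere. In WT CITCO mice 1 to 3 they summed to 3024, 3985 and 1987 CPM. Alas2, which is among them, was lower in hCAR/hPXR than in WT corn oil mice (-1.01, SE 0.22, adjusted p = 0.0264 by edgeR's quasi-likelihood test). DESeq2 and limma called it too (adjusted p = 0.00125 and 0.0327), and edgeR's call ended without any 1 of 5 libraries. Of the 7 cholangiocyte markers, 4 had at most 3 counts in any library, Cldn7 among them at 0, and 1, Sox9, was tested. Their sum was 12.7 to 21.4 CPM in WT CITCO, 21.9 to 27.5 CPM in WT corn oil and 16.2 to 25.4 CPM in the humanised mice. Most of that sum was Sox9, with a log2 difference of -0.74 (-1.44 to -0.04, adjusted p = 0.519 by edgeR's quasi-likelihood test) in WT CITCO against WT corn oil.

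**Figure D4:**
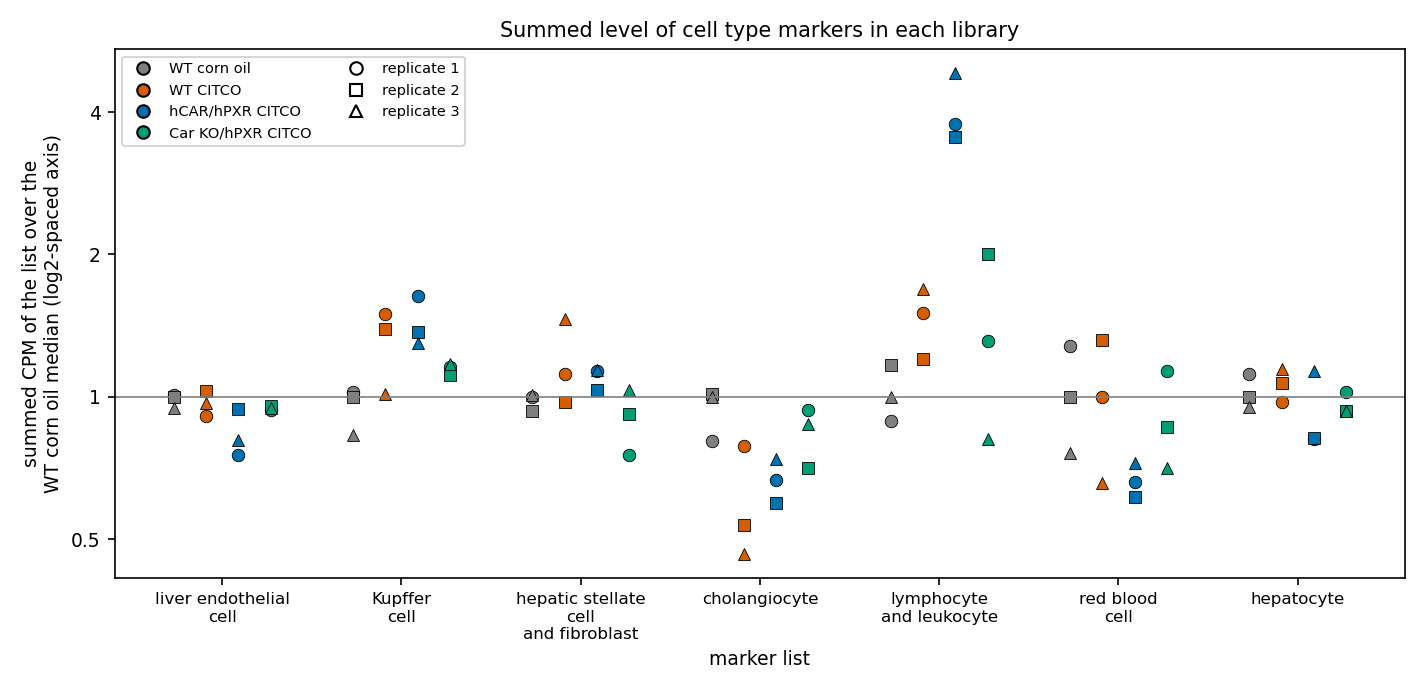
Summed CPM of each marker list (x axis) over the WT corn oil median of that list (y axis, log2-spaced), with 1 point per library coloured by group and shaped by replicate. In the Kupffer cell column WT CITCO replicate 3 sits with the corn oil points while replicates 1 and 2 lie above them, and in the leukocyte column all 3 hCAR/hPXR points lie above all others.

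The annotated 3' untranslated regions, where reads of such libraries mostly fall, were searched for ATTTA, a pentamer known from short-lived messenger RNAs. Phlda1 held 3 in 612 bases, or 4.90 per kb, a density above that of 95.6% of the 7998 tested genes with an annotated region. Abhd17b held 4 in 1348 bases (2.97 per kb, above 82.0% of genes), Fzd4 10 in 4774 bases (2.10 per kb, above 68.7%), Arid5b 8 in 3984 bases (2.01 per kb, above 67.0%) and Vmp1 2 in 1443 bases (1.39 per kb, above 52.4%). All 5 densities were above the median of 1.3 per kb, by little in Vmp1.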

How the data were processed

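Liver RNAseq from 12 male mice was analysed in 4 groups taken from the sample labels, with 3 mice per group. Per the submitters' processing notes, reads were checked with FastQC 11.7, trimmed with Trimmomatic 36, aligned with STAR 2.5.2 to the Ensembl annotation of GRCm38 and counted with RSEM 1.3. The authors deposited expected counts for 51912 genes, not normalized, of which 13.8% of values above 0 were not whole numbers (tolerance 0.001), since RSEM divides reads that fit several genes. The deposited variance-stabilised values, for 17859 genes, are log2-like and came from DESeq2. Their scale is compressed at low counts, so differences on them, those of limma included, are not log2 fold changes. For S100a8 in hCAR/hPXR against WT corn oil mice limma gave 1.05, where edgeR gave 3.25. All columns of both tables were matched to samples.

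Expected counts were rounded to whole numbers. Genes were kept by filterByExpr, scaled by TMM and tested in R 4.3.3 with edgeR 4.0.16 (quasi-likelihood test, 1 mean per group, all 12 libraries), with Benjamini-Hochberg adjustment over the 8594 genes tested. A call needed an adjusted p under 0.05 and a fold over 1.5. With 3 mice per group, p-values set the difference between groups against the spread between mice. That spread was estimated over all 12 libraries, with information shared across genes. The script was tested on simulated data. Alternatives were other size factors, DESeq2 1.42.0, limma 3.58.1 on the deposited log2-like values, other filters, only the groups compared, a replicate block and leaving out each library; a fit without the WT CITCO libraries was added after the data were seen.

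The 5 genes and the gene lists were chosen with earlier results of these data known. Genes named are the 5, Nr1i2 and Nr1i3, the 3 genes most like each of the 5, their family members, and called or abundant list genes; Ulk1, Atf5, Junb and calls of DESeq2 or limma alone were named after their values were seen. Positions come from GENCODE M21 on GRCm38, another release than the authors' annotation, and promoter windows and microRNAs from RefSeq on GRCm38.p6. The CPM of 3 counts covers counting error only.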

Additional observations from a re-analysis of the deposited data

How the results depend on the processing

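Under alternatives that keep all libraries compared, 132 tested values kept their side of the threshold and 3 were called instead: without a filter on low counts, Phlda1 in hCAR/hPXR against Car KO/hPXR (-0.92, adjusted p = 0.00332, 1 of the 5 genes called) and Arid5b in hCAR/hPXR against WT corn oil (0.89, adjusted p = 0.00304, 1 called), and by DESeq2 that Arid5b comparison (0.89, adjusted p = 0.0434, 1 called). The cause was not tested. Over all alternatives the adjusted p ran from 0.00332 to 0.609 for Phlda1 and from 0.00304 to 0.422 for Arid5b in these comparisons. Leaving out each library, 176 tested values kept direction and side, and 4 changed sign: Abhd17b in hCAR/hPXR against Car KO/hPXR (range -0.075 to 0.16, below 0 without hCAR/hPXR mouse 1 or Car KO/hPXR mouse 3), Phlda1 in hCAR/hPXR against WT corn oil (-0.438 to 0.466, above 0 without corn oil mouse 1) and Vmp1 in Car KO/hPXR against WT corn oil (-0.078 to 0.271, below 0 without Car KO/hPXR mouse 3). The number of the 5 genes with every WT CITCO library above the others was between 3 and 5, with 5 without WT CITCO mouse 3 and 4 without Car KO/hPXR mouse 3. These counts follow in part from the choice of genes, and the share of all genes is given only for all 12 libraries. The Fzd4 difference of WT CITCO from WT corn oil ran from 0.18 to 0.78. On the deposited values, whose scale is compressed at low counts, 3 described differences moved by more than the spread between replicates. They went from 1.52 to 0.88 for Abhd17b and from 1.76 to 1.34 for Arid5b over WT corn oil. That of Phlda1 over hCAR/hPXR went from 1.91 to 1.39.

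Calls over all genes, which form the background shares, moved more. For WT CITCO against WT corn oil, hCAR/hPXR and Car KO/hPXR they were 20, 35 and 22, and became 179, 184 and 227 without the filter and 41, 63 and 69 with DESeq2. For the tested comparisons (hCAR/hPXR against Car KO/hPXR, hCAR/hPXR against WT corn oil, Car KO/hPXR against WT corn oil) 50, 85 and 4 became 233, 261 and 95 without the filter, 96, 127 and 12 with DESeq2, and 73, 94 and 4 in the fit without the WT CITCO libraries. Leaving out 1 library, calls for WT CITCO against WT corn oil ran from 6 (without corn oil mouse 3) to 54 (without WT CITCO mouse 3), against hCAR/hPXR from 17 (without WT CITCO mouse 1) to 36, and against Car KO/hPXR from 5 (without WT CITCO mouse 1) to 58 (without WT CITCO mouse 3). The tested comparisons ran from 10 (without Car KO/hPXR mouse 3) to 86 (without WT CITCO mouse 3), from 25 (without corn oil mouse 2) to 99, and from 3 to 6.

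Replicate numbers did not pair the libraries, since the correlation of deviations between same-numbered libraries was between -0.06 and 0.08. A fit with the replicate block called 53, 91 and 5 genes in the tested comparisons, against 50, 85 and 4, and 0 of the 5 genes in each, as without the block.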
